A study of Mus musculus with 2 samples.

Results

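The cells described here are the Cd209a dendritic cells of B16F10 mouse melanomas, in 2 single-cell RNA libraries of CD45-positive tumour cells, 1 per group. CD45 marks all leukocytes, and B16F10 is a transplantable melanoma line of C57BL/6 origin. Both libraries came from tumours labelled WT for genotype. The control library is labelled as following the transfer of bone-marrow-derived macrophages (BMDMs) without treatment, and the IL4 library as following the transfer of BMDMs treated with IL-4, a type 2 cytokine. A protocol field, however, gives the transfer of IL-4-treated cells for either library, which conflicts with this, and the group names used here follow the treatment label of each sample. Age, sex, the time after transfer and the number of animals behind each library are not given in the sources used here, and transferred cells cannot be told apart from host cells. A member was a barcode of no fewer than 500 UMIs and 250 genes, with a mitochondrial share of 10% or less, that carried 3 or more Cd209a UMIs and stayed under the limits for other cell types. Those limits were under 3 UMIs of Xcr1 plus Clec9a (type 1 dendritic cells), under 3 of Ccr7 (mature dendritic cells) and under 3 of Siglech (plasmacytoid dendritic cells). They were also under 10 of the cycling genes Mki67, Top2a, Birc5 and Ube2c, under 10 of the complement genes C1qa, C1qb and C1qc (macrophages), and 0 of Cd3d, Cd3e, Cd3g and Ncr1 (T and NK cells). The rule kept 847 of 22699 barcodes that passed the quality limits, 392 of 8937 in control and 455 of 13762 in the IL4 library. Since measured transcripts chose the members, the genes of the rule are given below only to describe them.

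Conventional dendritic cells take up antigen in tissues, carry it to lymph nodes and present it to T cells. The type 2 lineage presents peptides on MHC class II to CD4 T cells, depends on the transcription factor IRF4, and carries SIRPα and C-type lectins on its surface. Cd209a encodes a mouse homologue of the human lectin DC-SIGN, Clec10a encodes the galactose lectin MGL1, and Mgl2 encodes its close relative MGL2 (CD301b). Monocytes that enter inflamed tissue or a tumour can also take on Cd209a and MHC class II, so that lineage genes other than Cd209a, such as Zbtb46 and Flt3 on one side and Fcgr1 and Ly6c2 on the other, are used to separate the lineages. IL-4 signals through a receptor containing IL4Rα to the transcription factor STAT6.

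The Cd209 genes lie in a cluster on mouse chromosome 8. In the mm10 annotation Cd209a (ENSMUSG00000031494) spans chr8:3743397-3748984, Cd209e (ENSMUSG00000040197) chr8:3847965-3854309, Cd209d (ENSMUSG00000031495) chr8:3871824-3878555 and Cd209c (ENSMUSG00000040165) chr8:3940222-3954746, all protein-coding and on the minus strand. Cd209a, Cd209d and Cd209e share a sequence element near the RefSeq start, and their windows are shown because of that match. The window of Cd209c, a gene also detected in the members, holds no match and is not shown. The windows below are RefSeq sequence of build GRCm38.p6, 260 bases long, from 250 bases before the RefSeq start to 10 after it, read 5′ to 3′ on the minus strand. The RefSeq start is the end of the span given above for Cd209a, and lies 56 bases inside it for Cd209d and 23 for Cd209e. They lie at chr8:3748975-3749234 for Cd209a, chr8:3878490-3878749 for Cd209d and chr8:3854277-3854536 for Cd209e. Capitals mark the matches to the searched motifs.
Cd209a: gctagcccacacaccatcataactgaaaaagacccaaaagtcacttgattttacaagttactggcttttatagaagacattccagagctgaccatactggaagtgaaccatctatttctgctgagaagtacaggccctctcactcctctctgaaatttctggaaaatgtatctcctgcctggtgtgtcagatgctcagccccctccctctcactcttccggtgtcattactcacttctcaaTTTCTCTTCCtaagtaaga
Cd209d: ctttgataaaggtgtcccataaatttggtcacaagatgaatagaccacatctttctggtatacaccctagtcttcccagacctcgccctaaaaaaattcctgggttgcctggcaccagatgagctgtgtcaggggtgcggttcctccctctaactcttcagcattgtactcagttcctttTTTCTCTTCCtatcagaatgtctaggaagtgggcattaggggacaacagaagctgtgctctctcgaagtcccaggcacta
Cd209e: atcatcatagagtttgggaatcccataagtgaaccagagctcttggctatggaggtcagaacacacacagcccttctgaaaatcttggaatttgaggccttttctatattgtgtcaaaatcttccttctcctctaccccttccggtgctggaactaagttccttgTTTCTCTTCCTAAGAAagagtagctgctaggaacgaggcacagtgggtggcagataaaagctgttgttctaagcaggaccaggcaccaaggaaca
All 3 windows hold TTTCTCTTCC, a match to the composite element of an interferon regulatory factor and an ETS factor, searched as GGAANNGAAA on either strand. It begins 9 bases before the RefSeq start in Cd209a, 70 before it in Cd209d and 85 before it in Cd209e. This motif is found in 782 of 32851 RefSeq windows of the same length (2.38%). In Cd209e a match to the STAT6 motif TTCNNNNGAA, TTCCTAAGAA, begins 79 bases before the start and overlaps the composite element; 2000 of the windows (6.09%) hold that motif. The PU.1 motif GAGGAAGT, searched on both strands and found in 854 windows (2.60%), has no match in these windows, and the windows of Cd209c (chr8:3946854-3947113, minus strand) and Mgl2 (chr11:70130107-70130366, plus strand) hold none of the 3 motifs. The Cd209c window lies at a RefSeq start 7883 bases inside the span above, so the upstream end of that span was not searched. A match describes the letters only, and no binding was measured here.

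The members held 5564130 UMIs in control and 5682732 in the IL4 library, with medians of 13512 and 11681 UMIs per barcode against 8947 and 8103 in the other barcodes kept. Median mitochondrial shares of the members were 1.19% and 0.957%. Cd209a itself, the gene of the rule, ranged from 3 to 80 UMIs per member in the control, with a median of 10, and from 3 to 50 in the IL4 library, with a median of 8. No member barcode sequence occurred in both libraries, and 23 of the barcodes kept did. Each library held cells of both sexes by their transcripts. The labels used here name the sex of neither hosts nor transferred cells, so animals of both sexes and transferred cells of another sex than the host cannot be told apart. Among members with UMIs of only Xist or only the Y-linked genes, 113 in the control were Y-only (34.7%, exact 95% interval 29.5 to 40.1%) and 42 in the IL4 library (10.7%, 7.83 to 14.2%). The corresponding shares of all barcodes kept were 36.8% and 10.9%. Ratios between the libraries are therefore also given within Xist-only members (213 control, 350 IL4) and within Y-only members (113 and 42). With 1 library per group no difference between the groups has a replicate check and no test was possible. Intervals given below are exact 95% intervals that cover counting error only.

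Cd209a dendritic cells made up 4.39% of the barcodes kept in the control (3.97 to 4.83%) and 3.31% in the IL4 library (3.01 to 3.62%). The difference was -1.08 percentage points (Newcombe interval -1.61 to -0.57). Of the barcodes with at least 3 Cd209a UMIs, 695 in control and 910 in the IL4 library, the Ccr7 limit removed the most, 139 of the 680 still present in the control (20.4%) and 252 of 890 in the IL4 library (28.3%). Ccr7 guides dendritic cells to lymph nodes and is induced as they mature. Without the Ccr7 limit the counts were 485 and 620, and the difference in share was -0.92 points. The C1q limit removed 57 and 66 barcodes, and the limit on Cd3 genes and Ncr1 removed 53 and 67.

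The label was checked against genes the rule did not use. Levels are in CPM: UMIs of a gene summed over all barcodes of a group, per 1000000 UMIs of that group. Clec10a stood at 443 CPM in the control members (95% interval 426 to 461) and at 448 in the IL4 members (431 to 466), and Mgl2 at 460.1 (442 to 478) and 351 (336 to 367). For comparison, further barcodes with under 3 Cd209a UMIs were grouped by their own markers. They were a DC type 1 gate on Xcr1 and Clec9a (136 control and 152 IL4 barcodes), a mature DC gate on Ccr7 (410 and 754), a monocyte gate on Vcan and Chil3 (1573 and 2090) and a C1q gate on the complement genes (1945 and 2847). Among these gates Clec10a was highest in the mature DC gate, at 58.2 and 69.5 CPM, and Mgl2 likewise, at 84.2 and 88.9 CPM. Barcodes with 2 Cd209a UMIs that met every other limit stood higher than these gates. They held Clec10a at 272 and 189 CPM and Mgl2 at 302 and 224 CPM in control and IL4. At least 1 Clec10a UMI was found in 326 of 392 control members (83.2%) and 373 of 455 IL4 members (82.0%). As a gauge of free RNA, a T/NK gate of 104 and 195 barcodes was taken. It needed at least 3 UMIs of the Cd3 genes and Ncr1, 0 of the C1q genes and at most 2 of Lyz2. The limits on the C1q genes and Lyz2 select barcodes with little myeloid RNA, so the gauge may understate free RNA. These barcodes carried Clec10a in 0.962% and 5.13% of barcodes, at medians of 6322 and 7016 UMIs. After each barcode was thinned to 2000 UMIs, Clec10a was seen in 48.5% of control and 44.9% of IL4 members. In the thinned T/NK barcodes it was seen in 0 of 104, which allows up to 3.48% (exact interval), and in 5 of 191 (2.62%). Mgl2 was seen in 57.7% and 46.4% of members, or 36.7% and 27.3% after thinning, against 1.92% and 0.524% of thinned T/NK barcodes. Barcodes under 2000 UMIs were not thinned and left this count (2 control members, 1 IL4 member and 4 IL4 T/NK barcodes). In the thinned DC type 1 gate Clec10a was seen in 1.47% and 1.32% of barcodes. Both lectins thus lay far above this gauge in the members, although 42.3% of control and 53.6% of IL4 members had no Mgl2 UMI.

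**Figure D1:**
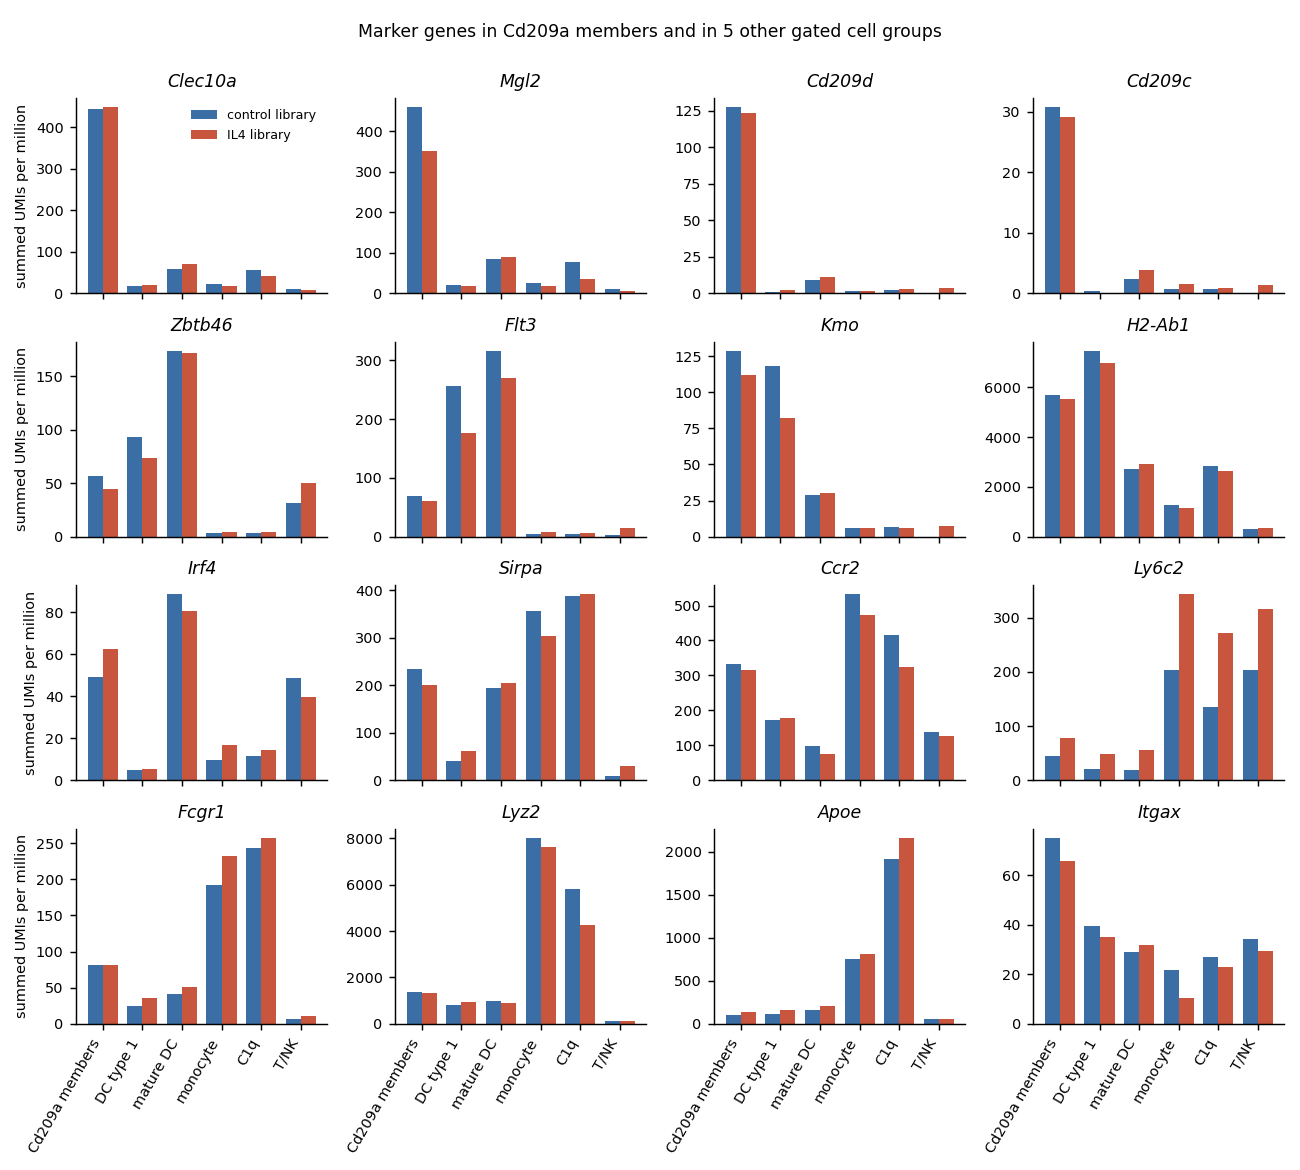
Levels of 16 marker genes in the members and in 5 comparison gates, in summed CPM (vertical axes, each from 0), with control and IL4 bars side by side. Clec10a, Mgl2 and Cd209d stand far above every other gate in the members, while Zbtb46 and Flt3 are highest in the mature DC gate and Lyz2 in the monocyte gate.

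The lineage genes placed the members between the other dendritic cells and the monocyte gate. Zbtb46, a transcription factor of conventional dendritic cells, stood at 56.6 CPM in control and 44.5 in the IL4 members, below the DC type 1 gate (92.7 and 73.0) and the mature DC gate (174 and 172) but above the monocyte gate (3.09 and 4.74). Flt3, the growth factor receptor of dendritic cell precursors, stood at 69.6 and 60.5 CPM, against 256 and 176 in the DC type 1 gate and 4.64 and 7.17 in the monocyte gate. Kmo, an enzyme of tryptophan breakdown, stood at 129 and 112 CPM, at or above the DC type 1 gate (118 and 82.2) and far above the monocyte gate (5.80 and 6.01). Irf4 stood at 49.1 and 62.6 CPM against 4.93 and 5.14 in the DC type 1 gate and 9.74 and 16.7 in the monocyte gate, but at 88.5 and 80.8 in the mature DC gate. The T/NK gate held Irf4 at 48.9 and 39.6 CPM and Zbtb46 at 31.8 and 49.8 CPM, near the members. The dendritic cell genes were thus present at levels that the monocyte gate did not reach. Fcgr1, the high-affinity IgG receptor CD64 of monocytes and macrophages, stood at 81.2 and 81.8 CPM in the members, against 24.7 and 35.6 in the DC type 1 gate, 192 and 232 in the monocyte gate and 243 and 257 in the C1q gate. Ly6c2, the marker of classical monocytes, stood at 44.9 and 78.3 CPM against 203 and 343 in the monocyte gate. Lyz2, lysozyme of monocytes and macrophages, stood at 1367 and 1313 CPM in the members against 8008 and 7628 in the monocyte gate. Apoe, a lipid carrier abundant in macrophages, stood at 106 and 141 CPM in the members and at 1914 and 2161 in the C1q gate. Thinned to 2000 UMIs, Fcgr1 was seen in 14.6% and 12.3% of members against 1.92% and 1.05% of T/NK barcodes. Apoe was seen in 13.8% and 13.9% of members against 11.5% and 12.6% of T/NK barcodes. Members with Apoe are therefore not counted as expressing cells, and the part of free RNA was not tested. Its level was uneven among members. In those with 0 and those with at least 3 Ly6c2 UMIs it stood at 88.3 and 211 CPM in control. In the IL4 library these levels were 101 and 203 CPM. Lyz2 was seen in 58.7% and 60.6% of members, near the 55.1% and 63.2% of the DC type 1 gate. Ccr2, the receptor that brings monocytes and precursors of type 2 dendritic cells out of the blood, stood at 332 and 316 CPM, between the DC type 1 gate (172 and 179) and the monocyte gate (532 and 474). The lectins Clec10a and Mgl2 stood higher in the members than in the DC type 1, mature DC, monocyte and C1q gates. Those gates were all limited to under 3 Cd209a UMIs. A Clec10a UMI was also found in 30.6% and 23.6% of the C1q gate, so the lectins alone do not settle the lineage. Sirpa, which encodes SIRPα, was not higher in the members than in the monocyte gate. Thinned to 2000 UMIs, it was seen in 35.4% and 32.4% of members and in 49.0% and 42.3% of the monocyte gate. The C1q gate had 51.0% and 49.9%, the mature DC gate 30.5% and 30.8%, and the DC type 1 gate 7.35% and 9.21%. Irf4 and MHC class II set the members apart from the monocyte gate but not from every other dendritic cell gate, and a part of the members carried Ly6c2 with more Lyz2, described below, so the rule does not give a pure lineage.

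Against all other barcodes kept, 300 of 9248 genes tested (3.24%) were at least 1.5-fold higher in the members in both libraries and 1069 (11.6%) at least 1.5-fold lower. These ratios are log2 of (CPM + 1), and since the cells were chosen by their own transcripts they are a description without a test. Leading the higher genes were relatives of the selecting gene. Cd209d stood at 127 and 123 CPM in the members and at 10.2 and 9.31 in the others, a log2 ratio of 3.52 in control and 3.59 in the IL4 library. Cd209c stood at 30.7 and 29.0 CPM in the members against 2.51 and 2.58 CPM (3.18 and 3.07). Cd209e, found in 30 control and 32 IL4 members, stood at 13.7 and 17.1 CPM and at no more than 0.606 CPM in any of the 4 gates. No stretch of 50 bases in the transcripts of Cd209c or Cd209d is shared with Cd209a, whereas 270 of 2205 such stretches of Mgl2 (12.2%) are found in Clec10a, so reads of the last pair can be uncertain.

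The rest of the 20 genes highest over the other barcodes had roles outside the lectins. Ffar2, the receptor for short-chain fatty acids (log2 ratios 2.98 and 2.80), was found in 146 control and 166 IL4 members. Cdh1, which encodes E-cadherin, had ratios of 3.01 and 2.42, and Ctnnd2, a catenin that binds cadherins, 2.72 and 2.40. Ddr1, a collagen receptor, reached 2.79 and 2.42, and Cacnb2, a calcium channel subunit, 3.01 and 2.70. Kmo had ratios of 2.36 and 2.25. Cd7, an immunoglobulin-family receptor, had ratios of 2.43 and 2.02, and Cyp7b1, an oxysterol hydroxylase, 3.03 and 1.95. Bcl11a, a transcription factor of lymphoid and dendritic progenitors, had ratios of 2.15 and 1.85. Ifitm1 stood at 1141 and 804 CPM in the members and at 292 and 225 in the others (1.96 and 1.83). Rtn1, Bex6, B4galt4, Trappc5, Slc30a4 and Lmo1 completed the 20 highest, with ratios from 1.82 to 2.30 across both libraries. Among the lowest were genes of T and NK cells, which the rule removed (Gzmb, Bcl11b, Themis, Nkg7, Prf1, Tox and Gzmc, with ratios from -4.62 to -3.49), together with Fscn1, a marker of mature dendritic cells (-4.37 and -3.55), and Rgs16 (-3.82 and -3.55).

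**Figure D2:**
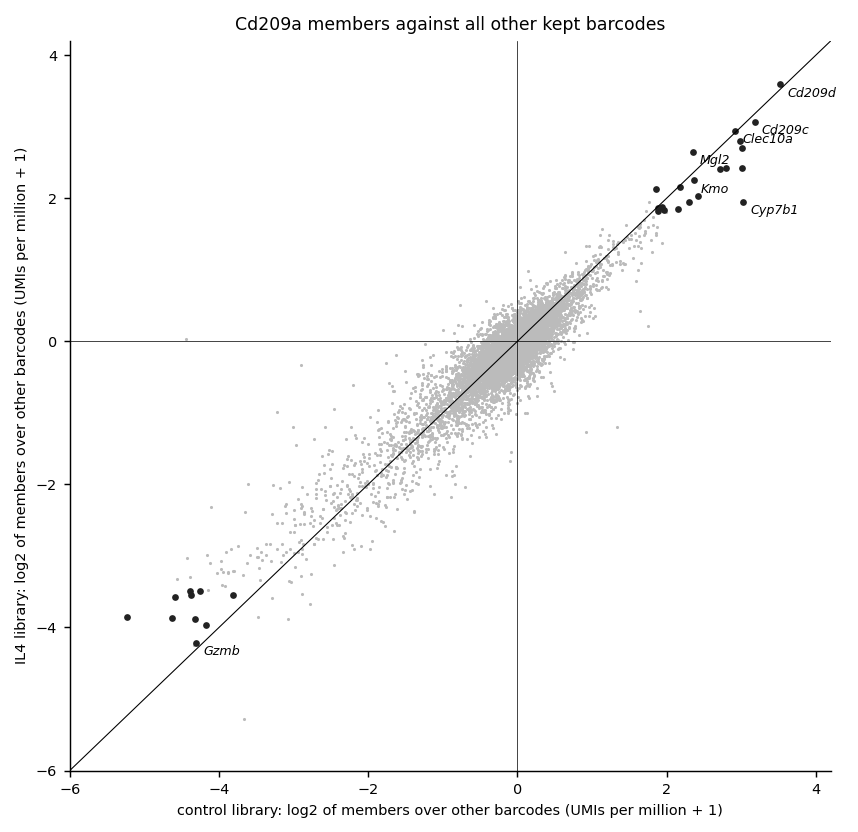
Each point is 1 of 9248 genes, placed by its log2 ratio of members over other barcodes in the control (horizontal axis) and in the IL4 library (vertical axis), with named genes in black. Cd209d, Cd209c and Clec10a lie at the upper right, near 3 in both libraries, and T and NK cell genes at the lower left, near -4.

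The gene lists were then counted against the background of 3.24% of genes higher and 11.6% lower. Of 17 MHC class II genes measured, 11 were higher in both libraries and 3 lower (median log2 ratio 0.95 in control and 1.05 in the IL4 library). Of 11 type 2 dendritic cell markers 7 were higher and 1 lower (median 1.35 and 1.25), and 5 of 10 genes of conventional dendritic cells in general were (1.06 and 0.77). Cd209a, which the rule used, was left out of the type 2 list. No monocyte marker of 16 was higher and 10 were lower (-1.31 and -1.27), and of 15 macrophage markers 14 were lower (-2.73 and -2.40). Of 18 chemokine genes 13 were lower and 1 was higher (-1.72 and -1.54), and 10 of 16 cytokine genes were lower. The MHC class I list did not stand apart, with 0 of 21 higher and 1 lower (-0.02 and -0.01). Neither did the type I interferon list, with 0 of 19 past 1.5-fold in both libraries in either direction.

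The members were then set against the 4 gates of the most similar cells. Relative to the DC type 1 gate, 1045 of 9246 genes (11.3%) were at least 1.5-fold higher in the members in both libraries and 719 (7.78%) lower. The counts were 1646 (17.8%) and 943 (10.2%) against the mature DC gate, 892 (9.65%) and 940 (10.2%) against the monocyte gate, and 750 (8.11%) and 977 (10.6%) against the C1q gate. Only 66 genes (0.714%) were at least 1.5-fold higher than in each of these 4 gates in both libraries. By their smallest ratio over the 4 gates the first were Cd209d (3.40), Clec10a (2.67) and Cd7 (2.51). Cd7 stood at 107 and 97.3 CPM in the members, at most 16.2 CPM in the 4 gates, and at 119.7 and 114 CPM in the T/NK gate, where it is a common marker. Cdh1 stood at 64.0 and 38.5 CPM and at no more than 7.75 CPM in the 4 gates. Ffar2 stood at 79.6 and 82.5 CPM and reached 16.0 and 22.4 CPM in the mature DC gate. Bcl2, which protects cells from death, was among the 66, at 60.9 and 46.6 CPM. The T/NK gate held it at 336 and 365 CPM. Ctnnd2, Trappc5, Mgl2 and Bex6 were also among the 66, as were Bcl11a and Itgax, which encodes CD11c and was named after its values were seen. Il1r2, the decoy receptor for IL-1, was not among them: its 385 and 307 CPM were near the 354 and 265 CPM of the mature DC gate and far above the 52.3 and 40.3 CPM of the monocyte gate. H2-Ab1, a chain of MHC class II, stood at 5699 and 5548 CPM in the members, at 7475 and 6968 in the DC type 1 gate, 2721 and 2922 in the mature DC gate and 1271 and 1166 in the monocyte gate.

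The limit of 3 Cd209a UMIs cut through a series of barcodes that was graded for some genes and not for others. Among barcodes that met every other limit, 52 in control and 96 in the IL4 library lay just outside with 2 Cd209a UMIs, and 31 and 64 lay just inside with 3. Clec10a stood at 272 CPM in the control barcodes with 2 UMIs and 309 in those with 3, and at 189 and 332 CPM in the IL4 library. In members with at least 10 Cd209a UMIs it reached 552 and 575 CPM. The steps between were uneven, with Clec10a at 226 CPM in the 34 control members with 4 UMIs and 417 in the 48 IL4 members. Cd209d went from 27.2 CPM at 2 UMIs through 72.3 at 3 to 163 at 10 or more in the control, and from 31.7 through 64.1 to 203 in the IL4 library. H2-Ab1 went from 3735 through 5081 to 6367 CPM in control and from 3987 through 4336 to 6444 in the IL4 library. Lyz2 went the other way, from 2260.5 CPM at 2 UMIs through 2407 at 3 to 763 CPM at 10 or more in the control, and from 2611 through 2166 to 1139 in the IL4 library. Barcodes with 0 Cd209a UMIs, which hold many other cell types, stood at 5940 and 5189 CPM of Lyz2. Median depth was also higher in the last bin, from 11903 UMIs at 2 to 15105 at 10 or more in control and from 9217 to 12637 in the IL4 library. Its part in these levels, which are already in CPM, was not tested.

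**Figure D3:**
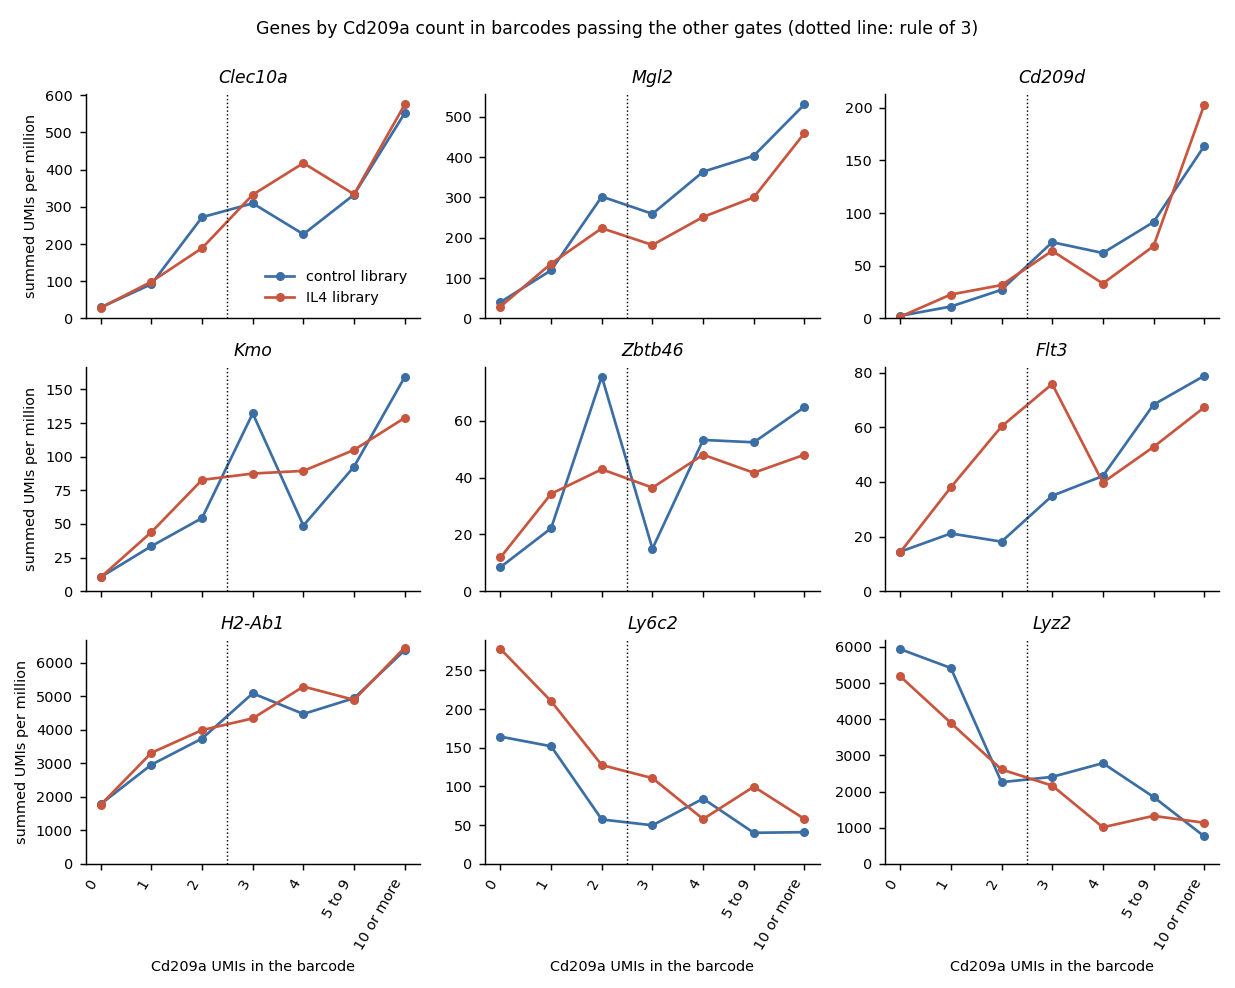
Levels of 9 genes in CPM (vertical axes) in barcodes that met every other limit, binned by their Cd209a UMIs (horizontal axis), for control and IL4, with a dotted line at the limit of the rule. Clec10a, Cd209d and H2-Ab1 are higher in the last bin than in any bin below the limit, and Lyz2 is at 763 and 1139 CPM in the last bin. Zbtb46 in the control is highest at 2 UMIs (75.6 CPM), below the limit.

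The members differed among themselves by Mgl2. In the control 166 members had 0 Mgl2 UMIs, 55 had 1 or 2 and 171 had at least 3, and in the IL4 library 244, 82 and 129, or 42.3%, 14.03% and 43.6% against 53.6%, 18.0% and 28.4%. Members rich in Mgl2 had more MHC class II, with H2-Ab1 at 4732 CPM in control members with 0 Mgl2 UMIs and 6522 CPM in those with at least 3, and 4817 and 6858 in the IL4 library. Cd209d was also higher in the members rich in Mgl2, at 164 against 102 CPM in control and 222 against 77.4 in the IL4 library. Cd7 and Ly6c2 were lower in them. Cd7 stood at 171 CPM with 0 Mgl2 UMIs and 66.6 with at least 3 in the control, and at 144 and 27.7 in the IL4 library. Ly6c2 stood at 73.1 and 19.6 CPM in the control, and at 109.5 and 30.5 in the IL4 library. Plac8, a gene of monocytes and of precursor dendritic cells, stood at 1976 and 922 CPM in the control, and at 2221 and 1391 in the IL4 library. Flt3 was lower with Mgl2 as well, at 87.6 and 48.9 CPM in control and 77.1 and 35.5 in the IL4 library. Zbtb46 went the other way, at 37.3 and 63.9 CPM in control and 37.0 and 55.4 in the IL4 library. Clec10a, the relative of Mgl2, differed little along this split, at 455 and 412 CPM in control and 483 and 417 in the IL4 library. Median depth was 12406 and 14986 UMIs at the ends of the split in control and 11011 and 13754 in the IL4 library.

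Splitting by Ly6c2 set apart a smaller group with monocyte genes. At least 3 Ly6c2 UMIs were carried by 27 control members (6.89%) and 47 IL4 members (10.3%), 1 or 2 by 69 and 105, and 0 by 296 and 303. From 0 to at least 3 Ly6c2 UMIs, Lyz2 went from 852 to 5238 CPM in control and from 789 to 3224 in the IL4 library. Cd14, a co-receptor for bacterial lipopolysaccharide, went from 179 to 436 and from 209.8 to 418 CPM. Zbtb46 went from 65.3 to 16.4 CPM in control and from 48.8 to 16.5 in the IL4 library. Mgl2 was lower in the Ly6c2-rich members, 117 against 526 CPM in control and 179 against 391 in the IL4 library, and so was H2-Ab1, 3274 against 6192 and 3651 against 5976. Flt3 did not separate the ends of the split, at 68.0 and 63.1 CPM in control and 72.2 and 53.7 in the IL4 library. Per cell, 37.5% of control members (32.7 to 42.5%) had UMIs of both a dendritic cell gene (Zbtb46 or Flt3) and a monocyte gene (Fcgr1 or Ly6c2), 26.5% of the former only, 24.0% of the latter only and 11.99% of neither. In the IL4 library the shares were 36.04%, 20.2%, 30.3% and 13.4%. Thinned to 2000 UMIs, 17 of 390 control and 15 of 454 IL4 members still had both (4.36% and 3.30%), and 65 (16.7%) and 86 (18.9%) had a monocyte gene only. At that depth 63.1% and 64.1% of the members had neither, so most members could not be assigned to either side, and the small share with both says nothing about whether the genes occur together. Ly6c2 was not particular to monocytes. Thinned, it was seen in 7.44% and 12.1% of members, 23.1% and 37.2% of the monocyte gate and 30.8% and 33.5% of T/NK barcodes. The DC type 1 gate had 3.68% and 5.92%. No doublet caller was run.

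For the members in the IL4 against the control library, 10857 genes had at least 20 UMIs over both. Of these 299 (2.75%) were at least 1.5-fold higher in IL4 and 577 (5.31%) at least 1.5-fold lower on the log2(CPM + 1) scale, with a median log2 ratio of -0.05 over all genes tested. Scaling by the median ratio in place of the UMI total gave 380 higher and 468 lower. The median over the same genes lay between -0.08 (C1q gate) and 0.00 (T/NK gate) in the comparison gates and was -0.04 in all other barcodes. None of the 11 measured type 2 dendritic cell markers and none of the 10 genes of conventional dendritic cells passed 1.5-fold (medians -0.12 and -0.25), which for lists of this size is near the background. Genes that differed and were found in many members included Marcksl1, Antxr2, Gadd45b, Ccl5 and Cxcl10, higher in IL4, and Hsph1 and Bag3, lower. These differences were not particular to the members, as the values of other barcodes given below show. The counts of each list below are to be read against the 2.75% and 5.31% of all genes. Genes under 20 UMIs over both libraries stayed out of them, at most 4 for any list of gene function.

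**Figure D4:**
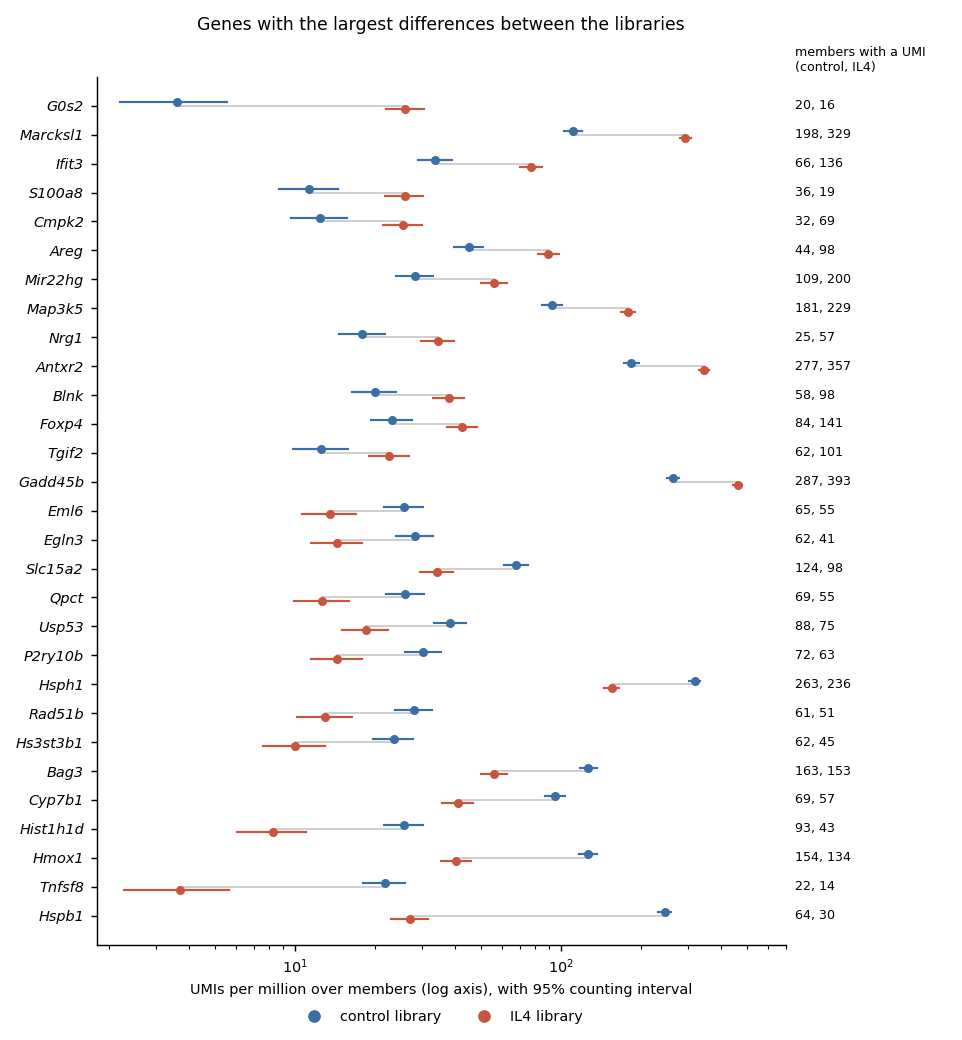
Levels of 29 genes in members, in CPM on a log axis with exact 95% Poisson intervals, for control and IL4, with the number of members that had a UMI. Marcksl1 stands at 111 and 294 CPM, found in 198 and 329 members, and Hspb1 at 246 and 27.1 CPM, found in 64 and 30 members.

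Among the lectins, Clec10a differed by 1.01-fold between IL4 and control (interval of the ratio 0.957 to 1.07). Cd209d was 1.03-fold lower in IL4 (0.931 to 1.15) and Cd209c 1.06-fold lower (0.850 to 1.32). Among Xist-only members Cd209d had a log2 ratio of -0.34 and Clec10a of 0.05, against 1.195 and -0.47 among Y-only members. Mgl2 was 1.31-fold lower in IL4 (1.24 to 1.39), with log2 ratios of -0.68 in Xist-only and 0.54 in Y-only members, so its direction was not shared by both. Cd209a, on which the members were chosen, stood at 1037 and 807 CPM. Of 17 lectin and uptake receptor genes, Clec4e alone passed 1.5-fold. Clec4e encodes Mincle, a receptor for mycobacterial glycolipids and products of dead cells, and stood at 59.3 CPM (53.1 to 66.1) in control and 93.3 (85.5 to 102) in the IL4 members, 1.57-fold higher (1.37 to 1.81). It was found in 112 and 188 members. Clec4e was also higher in IL4 outside the members. The DC type 1 gate held it at 44.4 and 71.9 CPM and the mature DC gate at 62.8 and 98.4. Levels were 349 and 522 CPM in the monocyte gate and 229 and 373 in the C1q gate. Clec7a is not analysed here.

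For antigen presentation, none of 16 MHC class II genes and none of 21 class I and cross-presentation genes passed 1.5-fold, with medians of -0.08 and 0.03. For lists of this size this is near the background. H2-Ab1 was found in 391 of 392 and 454 of 455 members, at levels 1.03-fold lower in IL4 (1.01 to 1.04). Cd74, the invariant chain that guides class II molecules, stood at 11128 and 10937 CPM. Ciita, the master regulator of class II transcription, stood at 290.1 CPM (276 to 305) in control and 205 (193 to 217) in the IL4 members, 1.42-fold lower (1.31 to 1.53), with log2 ratios of -0.46 in Xist-only and -0.75 in Y-only members. Ciita was also lower in IL4 in the gates, at 311 and 228 CPM in the DC type 1 gate, 49.6 and 38.4 in the monocyte gate and 81.9 and 57.5 in the C1q gate, whereas the mature DC gate had 128 and 125. H2-Oa, a chain that tempers peptide loading, had the lowest ratio of the class II list (1.45-fold lower, 1.21 to 1.74). None of 16 lysosomal and none of 16 co-stimulatory and checkpoint genes passed 1.5-fold. Cd86, a ligand of the T cell receptors CD28 and CTLA-4, stood at 1128 and 1111 CPM, and Cd274, which encodes PD-L1, at 204 and 254 (1.24-fold higher, 1.15 to 1.35).

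Of 23 transcription factor genes, Irf8 alone passed 1.5-fold. Irf8, needed for type 1 dendritic cells and monocytes, stood at 88.4 CPM (80.8 to 96.6) in control and 149 (139 to 159) in the IL4 members, 1.68-fold higher (1.505 to 1.89), and was found in 181 and 248 members. Its log2 ratio was 0.95 in Xist-only members and -0.46 in Y-only members, and 0.06 in the monocyte gate. Irf4 was 1.28-fold higher in IL4 and Klf4, a factor of type 2 dendritic cells and monocytes, 1.09-fold lower (1.03 to 1.14). Zbtb46 was 1.27-fold lower (1.07 to 1.51) and Flt3 1.15-fold lower (0.991 to 1.33), both short of 1.5-fold. None of 12 growth factor receptor and survival genes passed, among them Csf2rb, a subunit of the GM-CSF receptor, at 219 and 276 CPM. Of 16 chemokine receptor and adhesion genes, Icam1 was higher in IL4, at 55.0 and 87.3 CPM (1.59-fold, 1.37 to 1.84), and Cdh1 lower (1.66-fold, 1.40 to 1.97).

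Chemokine genes had a median log2 ratio of 0.33 over 18 genes, of which 4 were at least 1.5-fold higher in IL4 and 1 lower. Ccl5, an attractant of T cells and monocytes, stood at 112 CPM (104 to 121) in control and 256 (243 to 269) in the IL4 members, 2.28-fold higher (2.08 to 2.51), in 152 and 246 members. Ccl7, which recruits monocytes through CCR2, stood at 78.4 and 177 CPM (2.26-fold, 2.02 to 2.54), in 164 and 248 members. Cxcl10, an interferon-induced ligand of CXCR3 on T cells, stood at 556 and 965 CPM (1.74-fold, 1.66 to 1.82), in 247 and 359 members. For comparison, Ccl7 stood at 33.0 and 63.2 CPM in the T/NK gate and at 1072 and 1777 in the C1q gate, and Cxcl10 at 797.6 and 1011 in the T/NK gate and 203 and 308 in the DC type 1 gate. Ccl5, also made by T and NK cells, stood at 2612 and 3855 CPM in the T/NK gate. Members with a UMI of these genes are therefore not counted as expressing cells, and the part of free RNA was not tested. Cxcl1, a neutrophil attractant, stood at 26.4 and 62.6 CPM, and 51.7% of its control UMIs lay in 3 members. Of these genes Ccl5, Ccl7, Cxcl10 and Cxcl1 kept a positive log2 ratio in Xist-only members (1.08, 1.62, 0.79 and 1.88) and in Y-only members (1.24, 1.21, 0.70 and 1.89). Outside the members the chemokine list had medians of 0.37 in the mature DC gate, 0.47 in the monocyte gate and 0.57 in the C1q gate, but 0.06 in the DC type 1 gate. Ccl24, an eotaxin, was the lower gene, at 21.2 and 6.33 CPM and in 33 and 24 members. Its levels in the gates, also lower in IL4, are given below.

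Cytokine genes had a median of 0.35 over 17 genes, with 6 higher and 1 lower. The higher ones were of low level or in few members: Il1a stood at 5.39 and 16.7 CPM in 24 and 45 members, Il10 at 10.1 and 18.8 in 29 and 67, Ebi3 at 15.1 and 24.5 in 63 and 98, Il23a in 6 and 14 members and Il12b in 3 and 9. Areg, an epidermal growth factor family ligand, stood at 45.1 and 89.9 CPM in 44 and 98 members, with a log2 ratio of 1.43 in Xist-only and -0.75 in Y-only members. Lif was lower, at 15.5 and 8.80 CPM. The broadly detected cytokine genes did not pass 1.5-fold. Il1b stood at 1199 and 1523 CPM (1.27-fold higher, 1.23 to 1.31) and Tnf at 168 and 214 CPM (1.27-fold higher, 1.17 to 1.39).

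NF-kB targets had a median of 0.37 over 20 genes, with 3 at least 1.5-fold higher in IL4 and none lower. NF-kB is a transcription factor family switched on by microbial sensors and inflammatory cytokines. Nfkbia, which encodes its inhibitor IκBα, stood at 1572 CPM (1539.6 to 1606) in control and 2406 (2366 to 2447) in the IL4 members and was found in 384 and 453 of them (1.53-fold, 1.49 to 1.57). Nfkb2, a subunit of the family, stood at 41.3 and 63.9 CPM (1.55-fold, 1.31 to 1.83), and Icam1 was the third gene. Tnfaip3, a negative regulator, was 1.34-fold higher (1.27 to 1.41) and Relb 1.27-fold higher (1.15 to 1.40). Its median stood at 0.26 among Xist-only and 0.71 among Y-only members, and 0.43 in both the monocyte and C1q gates.

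Interferon-stimulated genes differed most between Xist-only and Y-only members among the lists of gene function. Of 20 genes of the type I interferon response 4 were at least 1.5-fold higher in IL4 and none lower (median 0.36). Ifit3, an antiviral protein gene on chromosome 19, stood at 33.8 CPM (29.1 to 39.0) in control and 77.6 (70.5 to 85.2) in the IL4 members, 2.30-fold higher (1.93 to 2.74), in 66 and 136 members. Cmpk2 stood at 12.4 and 25.5 CPM, Ifit3b at 10.6 and 19.9 CPM, and Oasl1 at 244 and 395 CPM (1.62-fold, 1.51 to 1.73). Xist-only members had a list median of 0.64 and Y-only members one of -0.53, where Ifit3 had a log2 ratio of -0.26 and Ifit3b of -1.52. Oasl1 was higher in IL4 in both, at 0.59 and 1.16. The interferon gamma list had 3 of 20 genes higher (Cxcl10, Irf1 and Socs1) and none lower, with a median of 0.11 (0.60 for Xist-only and -0.85 for Y-only members). Irf1 stood at 137 and 207 CPM (1.52-fold, 1.39 to 1.67), with positive ratios in both. The pooled medians of both interferon lists therefore join opposite directions, and the difference between Xist-only and Y-only members was not tested. In the 4 gates, where the sexes were not separated, the type I list had medians from 0.51 (C1q gate) to 0.77 (DC type 1 gate). Mx1 and Mx2 are not analysed here.

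The IL-4 receptor pathway and its response had the same median log2 ratio as all genes tested, -0.05. Of 23 genes, Socs1, a feedback inhibitor, was at least 1.5-fold higher (28.2 and 44.9 CPM, 1.59-fold, 1.30 to 1.95), and Arg1, Retnla and Ccl24 were lower. The lower ones are known products of alternatively activated macrophages, and each was found in few members. Arg1, arginase 1, stood at 32.5 and 13.4 CPM in 40 and 38 members, Retnla at 9.35 and 3.70 CPM in 10 and 15. Without the 3 richest barcodes of each library the log2 ratio of Retnla was 0.15. In Y-only members the log2 ratio was -0.03 for Arg1 and -0.10 for Ccl24, and Retnla had 0 UMIs in both libraries. Outside the members, Arg1 stood at 377 and 183 CPM in the monocyte gate and 414 and 261 in the C1q gate. The DC type 1 gate held 45.8 and 6.97 CPM, the mature DC gate 51.7 and 37.4 and the T/NK gate 4.89 and 8.94. Ccl24 stood at 188 and 78.3 CPM in the monocyte gate and 192 and 67.5 in the C1q gate. The other dendritic cell gates also had less Ccl24 in IL4. Retnla was higher in IL4 in the monocyte gate (log2 1.39). The part of free RNA was not tested. Il4ra stood at 134 and 141 CPM (1.06-fold higher, 0.954 to 1.17) and Stat6 at 62.0 and 65.6 (1.06-fold higher, 0.912 to 1.23). Ccl17, a T cell attractant induced by IL-4, stood at 101 and 72.1 CPM in only 47 and 56 members (1.40-fold lower, 1.23 to 1.59), with log2 ratios of -0.70 in Xist-only and 0.66 in Y-only members. The list also holds Mgl2 and Clec10a, given above, while Cd209a was left out of its count.

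**Figure D5:**
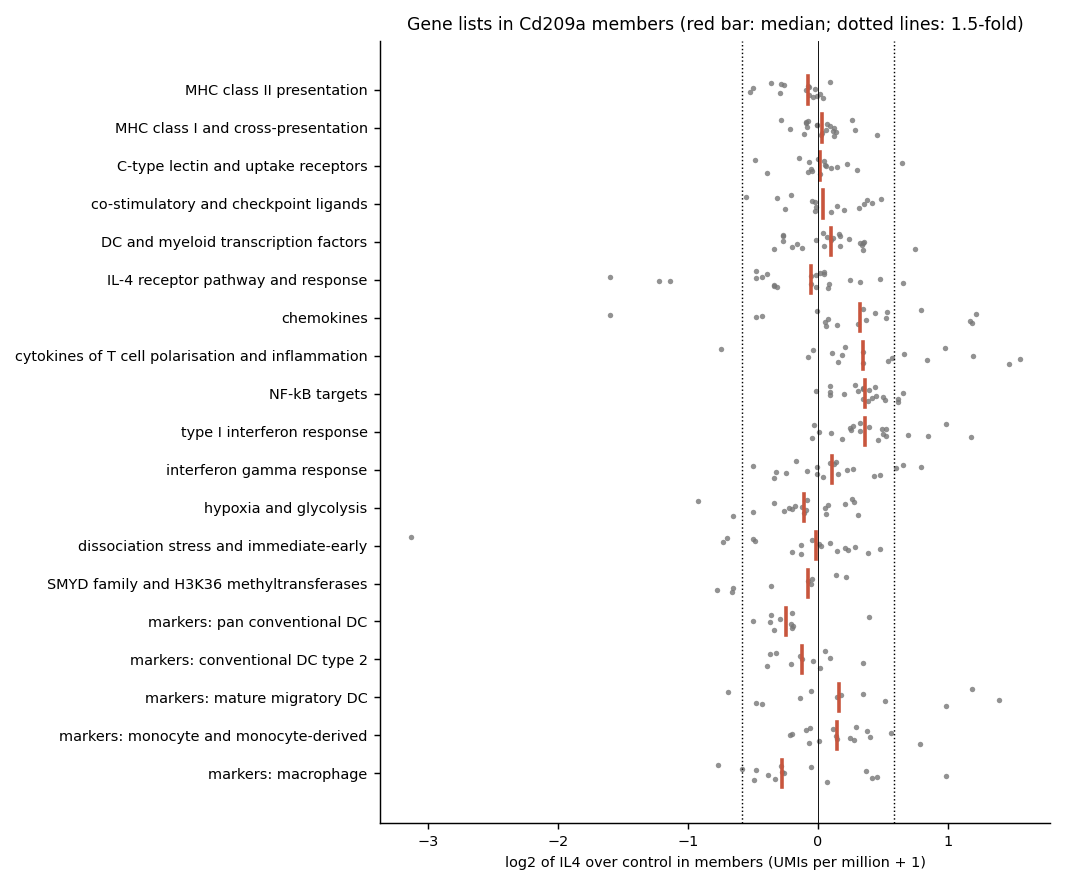
Log2 ratios of IL4 over control in members for each measured gene of 19 lists (points), with the list median as a red bar and dotted lines at 1.5-fold. The medians of the NF-kB, cytokine, type I interferon and chemokine lists lie between 0.33 and 0.37, and those of MHC class II and MHC class I at -0.08 and 0.03.

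Among the remaining lists few genes passed. Of 7 Fc receptor genes Fcrls was lower, in 16 and 13 members, and Fcgr1 was 1.01-fold higher (0.883 to 1.15), with log2 ratios of 0.17 in Xist-only and -1.09 in Y-only members. Of 23 sensor and adaptor genes Tlr9 passed, with only 6 and 13 members carrying it. Of 8 MS4A genes Ms4a7, a macrophage gene, was higher, at 4.49 and 9.85 CPM. Of 19 hypoxia and glycolysis genes Egln3 and Slc2a1 were lower, and Slc2a1, the glucose transporter GLUT1, stood at 82.0 and 51.7 CPM (1.58-fold lower, 1.37 to 1.84). Of 9 SMYD and H3K36 methyltransferase genes Smyd2, Smyd3 and Smyd4 were lower in IL4. Smyd3, a lysine methyltransferase, stood at 53.4 CPM (47.5 to 59.8) in control and 30.8 (26.4 to 35.7) in the IL4 members, in 122 and 109 members, with log2 ratios of -0.78 and -0.79 in Xist-only and Y-only members. Smyd5 stood at 8.63 and 6.51 CPM (1.32-fold lower, 0.845 to 2.09), which is within counting error. Mcm6 alone of 10 cell cycle genes was lower, with log2 ratios of -1.27 in Xist-only and 0.70 in Y-only members.

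Of the 18 genes of dissociation stress and immediate-early response 3 were lower in IL4 (Hspb1, Hspa1a and Hsp90aa1) and none higher, with a median of -0.02. The other heat-shock genes of the list did not pass: Hspa1b had a log2 ratio of -0.49, Dnajb1 of -0.50 and Hspa8 of -0.05. Hspb1 had the lowest log2 ratio of the named genes (-3.13). Hspb1, a small heat-shock protein gene, stood at 246 CPM (233 to 259) in 64 control members and 27.1 (22.99 to 31.7) in 30 IL4 members, 9.06-fold lower (7.66 to 10.8), and 38.1% of its control UMIs lay in 3 members. Bag3, a co-chaperone, stood at 127 and 56.3 CPM (2.26-fold lower, 1.97 to 2.58), in 163 and 153 members. Hsph1 stood at 319 and 156 CPM (2.05-fold lower, 1.89 to 2.23), Hspa1a at 1951 and 1174 (1.66-fold, 1.61 to 1.71) and Hsp90aa1 at 1447 and 889.9 (1.63-fold, 1.57 to 1.68). The last pair was found in most members of both libraries (369 and 410 for Hspa1a). In the other barcodes the log2 ratios were also negative, with values of -1.60 for Hspb1, -1.11 for Hsph1 and -0.95 for Bag3.

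Marcksl1 led the genes higher in IL4 that were found in many members. Marcksl1, an actin-binding protein gene that stood at 1050.2 and 1152 CPM in the mature DC gate, stood at 111 CPM (102 to 120.2) in control and 294 (279.6 to 308) in the IL4 members, 2.64-fold higher (2.41 to 2.90), and was found in 198 and 329 members. After thinning to 2000 UMIs it was seen in 16.4% and 38.3% of members, against 2.88% and 13.6% of T/NK barcodes. Its log2 ratios were 1.16 and 2.02 in Xist-only and Y-only members, 1.18 in the monocyte gate, 1.04 in the C1q gate and 0.13 in the mature DC gate. Antxr2, the receptor for capillary morphogenesis protein and anthrax toxin, stood at 184 and 345 CPM (1.87-fold, 1.74 to 2.02), in 277 and 357 members, with ratios of 0.87 and 0.88 in Xist-only and Y-only members. In the DC type 1 gate Antxr2 stood at 296 and 558 CPM, and in the mature DC gate at 280 and 390. The monocyte gate held 258 and 342 CPM, the C1q gate 161 and 236, and the T/NK gate 86.7 and 116. Gadd45b, a stress-response gene, stood at 265 and 462 CPM (1.74-fold, 1.64 to 1.86), in 287 and 393 members. In the DC type 1 gate Gadd45b stood at 109 and 224 CPM, and in the mature DC gate at 871 and 1288. The monocyte gate held 490 and 716 CPM, the C1q gate 523 and 962, and the T/NK gate 175 and 334. Mir22hg, the host transcript of a microRNA, stood at 28.2 and 56.3 CPM in 109 and 200 members. Foxp4 and Tgif2, both transcription factor genes, were found in 84 and 141 and in 62 and 101 members, and Blnk, a signalling adaptor, in 58 and 98. Map3k5, a stress kinase, and Nrg1, a growth factor, were higher in Xist-only members (log2 1.35 and 2.61) but not in Y-only members (-0.10 and -0.48). Cyp7b1 stood at 95.3 CPM (87.3 to 104) in 69 control members and 41.0 (35.9 to 46.6) in 57 IL4 members, 2.32-fold lower (1.99 to 2.72), with ratios of -0.70 in Xist-only and -1.09 in Y-only members and of -0.12 in the other barcodes.

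Some of the largest ratios came from few barcodes. G0s2 stood at 3.59 and 26.04 CPM, and 131 of its 148 IL4 UMIs lay in 3 members; without the 3 richest members of each library its log2 ratio was -0.02. S100a8, a neutrophil and monocyte gene, stood at 11.3 and 25.9 CPM in 36 and 19 members, and its ratio was -0.84 without the 3 richest. Tnfsf8 stood at 21.7 and 3.70 CPM, with 94 of 121 control UMIs in 3 members. Hmox1, heme oxygenase 1, stood at 127 and 40.5 CPM in 154 and 134 members (3.13-fold lower, 2.69 to 3.65), with 36.2% of its control UMIs in 3 members. Hist1h1d, a linker histone gene, was spread more evenly (11.2% of control UMIs in 3 members), at 25.7 and 8.27 CPM in 93 and 43 members (3.11-fold lower, 2.22 to 4.42). Hs3st3b1, P2ry10b, Usp53, Qpct, Eml6, Rad51b and Slc15a2 were lower as well, by log2 ratios of -1.15 to -0.88, but Rad51b and Slc15a2 were higher in Y-only IL4 members (0.23 and 0.82).

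Markers of other cells differed between the libraries as well. Ly6c2 was at least 1.5-fold higher in IL4 members (44.9 CPM, 39.5 to 50.9, against 78.3, 71.2 to 85.9), the only one of 16 monocyte markers to pass, and it was higher in every comparison gate as well (log2 0.75 in the monocyte gate and 1.45 in the mature DC gate). The 16 monocyte markers summed to 4665 CPM in control and 5218 in the IL4 members, with none at 0. The macrophage list summed to 617 and 608 CPM, with Ms4a7 higher and Fcrls lower of 15 measured. The mature DC list summed to 889 and 1239 CPM, with Marcksl1, Ccl5 and Fscn1 higher and Laptm4b lower of 12 measured, and the type 1 dendritic cell list, in which Irf8 and Cadm1 were higher, to 711 and 709. The T and NK list summed to 21.9 and 49.8 CPM, with Cd3d, Cd3e, Cd3g and Ncr1 at 0 by the rule, and Nkg7, Gzma and Il2rb were higher in IL4 (3 of 7 measured). The neutrophil list summed to 67.9 and 126 CPM with Ly6g at 0, and 4 of 5 measured genes were higher. Few barcodes carried these genes: without the 3 richest of each library the log2 ratios were -0.02 for G0s2, -0.84 for S100a8 and -0.19 for S100a9, and the list median was -0.11 in Xist-only members. The B cell list summed to 69.2 and 60.01 CPM, the mast cell and basophil list to 14.02 and 23.4, the list of melanoma and stroma to 95.1 and 75.1, and the plasmacytoid list to 602 and 675. In Y-only members, on few UMIs, Fscn1, Cadm1, Nkg7 and Il2rb had negative log2 ratios (-1.72, -1.02, -1.57 and -1.21). The part of these cells in the differences between the libraries was not tested.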

How the data were processed

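For each of the 2 libraries the authors deposited a matrix of unnormalised UMI counts (genes by barcodes). It was made with Cell Ranger 7.2.0 on mm10, per the submitters' processing notes, with an annotation of unstated release. The files hold 32285 genes. UMIs were summed over members per library and divided by their total (CPM). Ratios were taken as log2(CPM + 1) for genes with at least 20 UMIs over both libraries, and at least 1.5-fold was called higher or lower; folds with intervals carry no pseudocount. Against other barcodes, genes needed at least 5 CPM over all barcodes kept in each library. Intervals are exact Poisson, binomial (Clopper-Pearson) or conditional binomial at 95%, and Newcombe for differences of shares. With 1 library per group no test was run. No doublet caller was run: the rule removes barcodes with Cd3 or Ncr1 UMIs, and an alternative leaves out the 5% of barcodes with most UMIs. Depth was a median of 13512 UMIs per control and 11681 per IL4 member. Python 3.11.15, numpy 2.4.6, scipy 1.17.1, pandas 2.3.3 and matplotlib 3.10.9 were used, and the scripts were tested on simulated data.

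The members, the 33 gene lists and the rules were chosen with earlier results of these data known. Named genes were the 20 highest and 10 lowest against other barcodes (at least 20 CPM and 50 UMIs in the higher side), the 15 highest and 15 lowest between libraries (at least 50 UMIs, 20 CPM or more on the higher side, and there 25% or more of the highest gate), up to 6 per list, and 18 fixed genes. Genes of the rule, mitochondrial, ribosomal, immunoglobulin, T cell receptor, haemoglobin and sex-linked genes and unnamed gene models were left out. Of the lists' symbols 4 were not analysed here, and a few named genes are not reported here. The alternatives covered the limits of the rule, the barcode filters, sex, scaling, pseudocount and gene minimum; the limits of 0 on Ccr7 and without Ccr7, and the removal of the 3 richest barcodes, were added after seeing the data.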

Additional observations from a re-analysis of the deposited data

Results flagged for a closer look

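These values are differences in direction between groups of cells under the same contrast, each past 1.5-fold in both directions; none of the differences was tested. All are log2 ratios of IL4 over control.

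Within the members, Areg stood at 1.43 in Xist-only members but at -0.75 in Y-only ones, and Irf7, a regulator of interferon genes, at 0.69 and -0.83. Ccl17 stood at -0.70 and 0.66, and Slc15a2, a peptide transporter, at -1.36 and 0.82.

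Between members and the comparison gates, Cyp7b1 stood at -1.20 in members and 1.06 in the monocyte gate, Retnla at -1.14 and 1.39, and Fcrls at -0.77 and 0.76. Hdc stood at 0.71 in members and -0.91 in the DC type 1 gate. Gzmc stood at 1.06 in members (7 control and 21 IL4 UMIs) and -1.57 in the mature DC gate (59 and 27 UMIs). These are low counts of a gene that stood at 72.1 and 154 CPM in the T/NK gate. G0s2 stood at 2.56 in members, -4.82 in the DC type 1 gate, -2.14 in the mature DC gate, -1.29 in the monocyte gate and -2.04 in the C1q gate. S100a8 stood at 1.12 in members, -1.66 in the mature DC gate, -0.93 in the monocyte gate and -1.91 in the C1q gate. S100a9 stood at 0.71 in members, -1.96 in the DC type 1 gate, -2.16 in the mature DC gate, -1.17 in the monocyte gate and -2.17 in the C1q gate.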

How the results depend on the processing

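The share of members was lower in IL4 under every alternative, by -0.92 percentage points (no Ccr7 limit, 485 and 620 members) to -1.48 (Xist-only). The numbers of genes at least 1.5-fold higher in IL4 and at least 1.5-fold lower in IL4 were 543 and 1432 in Y-only members, 86 and 152 with a pseudocount of 5 CPM, 94 and 192 with a gene minimum of 100 UMIs, and 703 and 1052 with no minimum. Fewer or more low genes tested and the 42 Y-only IL4 members shape these counts by construction. The MHC class II median was -0.28 in Y-only members. Of 81 named genes past 1.5-fold, 66 kept their direction under every alternative that gave a value and 33 also stayed past 1.5-fold. Of 1412 values, 1392 had the same direction and 1280 were past 1.5-fold in either direction, reversed values included.

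Reversed log2 ratios were as follows, and the cause was not tested. With at least 5 Cd209a UMIs S100a8 was -1.64 and S100a9 -1.31, and with C1q genes under 3 UMIs Cadm1 was -0.39. In Xist-only members the neutrophil list median was -0.11, G0s2 -0.13, S100a8 -0.038 and S100a9 -0.17. In Y-only members Areg was -0.75, Ifit3 -0.26, Ifit3b -1.52, Irf8 -0.46, Map3k5 -0.10, Mcm6 0.70, Nrg1 -0.48, Rad51b 0.23 and Slc15a2 0.82. Thinned to 3000 UMIs Il10 was -0.036. Without the 3 richest barcodes G0s2 was -0.023, Retnla 0.15, S100a8 -0.84 and S100a9 -0.19. No paired analysis was possible because each group has 1 library. Genes of a few CPM are limited by counting error, as the intervals show.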
